A study of Mus musculus with 5 samples.

Results

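Macrophages, fibroblasts and epithelial cells of a late KIC library were compared with those of a late KPC library. Both are mouse models of pancreatic ductal adenocarcinoma. By the common use of these model names, KIC loses the Cdkn2a locus in the pancreas, and KPC carries point-mutant Trp53. The labels give the models by name and do not state alleles, Cre drivers or sex. Both libraries came from untreated mice on a mixed C57BL/6 and FVB background, late KIC at 60 days of age and late KPC at 6 months, and the labels do not give the number of animals behind each. The series holds 5 single-cell libraries in all, 1 each of normal pancreas, early KIC, late KIC, late KPfC and late KPC. Each group is therefore 1 library, no difference below has a replicate check, no test was made, and model and age cannot be told apart.

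Cells were taken into a compartment by their own transcripts, not by clustering. A kept cell had at least 200 genes and at most 20% of its unique molecular identifiers (UMIs, counted molecules) from mitochondrial genes. Macrophages had C1qa, C1qb and C1qc at 10 or more UMIs per 10000, and at least 3 UMIs. Fibroblasts had Col1a1, Col1a2, Col3a1 and Dcn at 30 or more per 10000 with no Ptprc, the pan-leukocyte gene. Epithelial cells had at least 2 UMIs of Epcam, Cdh1 and Cldn7 with no Ptprc. The 3 compartments held 804 of the 1870 kept cells of both libraries, 400 in late KIC and 404 in late KPC, out of 10718 kept cells in the series. The 11 genes of these rules were left out of every count below.

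Pancreatic ductal adenocarcinoma is a tumour in which malignant epithelium is usually outnumbered by stroma. Its macrophages derive from blood monocytes and from tissue-resident cells, present antigen through MHC class II and secrete cytokines, chemokines and proteases. Its fibroblasts lay down collagen and other matrix, and subsets of them are contractile or secrete inflammatory factors; mesothelial cells of the organ surface share part of their transcripts. Tumour epithelium can keep ductal and gland-like features with intact junctions, or lose them and take on mesenchymal genes, a shift called epithelial-mesenchymal transition (EMT).

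The late KIC library was deeper than the late KPC library. Late KIC had 836 kept cells of 938 barcodes with a median of 9332 UMIs and 2291 genes per cell, and late KPC had 1034 of 1377 with 1958 UMIs and 814 genes. Total UMIs were 13357997 and 3488871. The libraries shared 1 barcode. Late KIC held 344 cells with Xist UMIs and none from the Y chromosome, 272 with Y-linked UMIs and no Xist, and 42 with both, whereas late KPC held 737 cells with Xist and 0 with Y-linked UMIs. Whether late KIC pools animals is not stated. Results were therefore also computed with Xist-only cells on both sides and with the Y-only cells of late KIC. All 12 higher and 12 lower leading genes of each compartment stayed at least 2-fold apart, in the same direction, in both. These genes were chosen for large folds over all cells, which include these sets, so this is not a separate check.

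By the rule as given, the share of macrophages was alike in both libraries and the share of epithelial cells was higher in late KIC. Macrophages made up 24.4% of late KIC cells (204 cells, exact binomial 95% interval 21.5 to 27.5%) and 24.5% of late KPC cells (253 cells, 21.9 to 27.2%). Other settings moved this share in both directions. In Xist-only cells it was 18.6% in late KIC and 26.2% in late KPC. With doubled entry thresholds it was 22.1% and 17.3%. Fibroblasts made up 9.81% (82 cells, 7.88 to 12.03%) and 10.9% (113 cells, 9.09 to 12.99%). Epithelial cells made up 14.7% in late KIC (123 cells, 12.4 to 17.3%) and 3.87% in late KPC (40 cells, 2.78 to 5.23%). That is a 3.80-fold difference (2.64 to 5.58); these intervals, like all others here, cover counting error only. The remaining cells fell into no compartment, 52.2% in late KIC and 60.9% in late KPC, and 9 and 2 cells fell into more than 1.

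The epithelial difference moved with depth. The entry rule asks for a number of molecules, and the median epithelial cell had 19190 UMIs in late KIC and 5723 in late KPC. Entry genes were at a median of 2.60 per 10000 in late KIC and 20.7 in late KPC. With every cell thinned to 1000 UMIs, 28 of 836 late KIC cells (3.35%) and 19 of 834 late KPC cells (2.28%) entered, a ratio of 1.47 (0.79 to 2.79). Asking in addition for 2 entry UMIs per 10000 left 68 and 39 cells, a ratio of 2.16. At the threshold, 29 late KIC and 10 late KPC epithelial cells had exactly 2 entry UMIs, and 71 and 32 cells with 1 UMI stayed outside. Among cells of no compartment, the summed level of 8 epithelial marker genes, as UMIs per 1000000 (CPM), was 5425 CPM in late KIC and 171 CPM in late KPC.

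**Figure D1:**
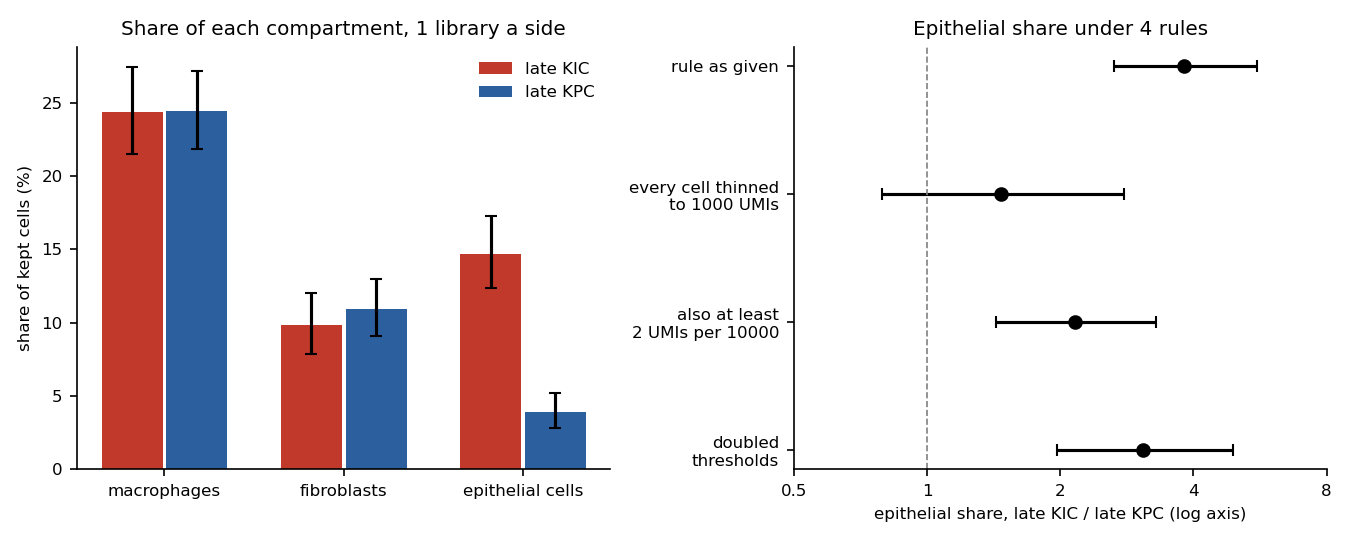
Left, percent of kept cells in each compartment in late KIC (red) and late KPC (blue), 1 library each, with exact binomial 95% intervals as error bars. Right, the ratio of epithelial shares (points, with 95% counting intervals, log axis) under 4 entry rules: 3.80 with the rule as given and 1.47 with every cell thinned to 1000 UMIs.

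Each compartment carried its own identity genes, and their summed levels were alike in both libraries. Summed over 8 markers each, macrophage markers were at 12339 CPM in late KIC and 13441 CPM in late KPC macrophages, fibroblast markers at 8547 and 7250 CPM in fibroblasts, and epithelial markers at 11825 and 11501 CPM in epithelial cells. Few genes carried these sums: Lyz2 (7431 and 9576 CPM) in macrophages, Sparc (7040 and 5894 CPM) in fibroblasts, and Krt8 (3935 and 3047 CPM) and Krt18 (5352 and 2799 CPM) in epithelial cells. The fibroblast marker Fap was at only 2.29 and 2.05 CPM in fibroblasts. Single markers differed: in epithelial cells Cldn4 (101 and 1880 CPM), Elf3 (18.3 and 272 CPM) and Muc1 (54.9 and 303 CPM) were lower in late KIC, in fibroblasts Dpt was higher (307 and 131 CPM), and in macrophages Aif1 was higher (333 and 132 CPM). Markers of other cell types differed between the libraries in several places. In macrophages, red cell markers were at 7466 CPM in late KIC and 3294 CPM in late KPC. There, 7 of 8 epithelial markers had UMIs in late KIC (297 CPM summed, Elf3 at 0) and 4 of 8 in late KPC (10.5 CPM; Krt19, Elf3, Cldn4 and Muc1 at 0). In fibroblasts, 7 of 8 epithelial markers had UMIs on each side (643 and 162 CPM, Elf3 at 0 in both). All 6 mesothelial markers also had UMIs there (948 and 545 CPM), and B and plasma cell markers were at 42.8 and 449 CPM. In epithelial cells, the 5 acinar markers summed to 828 and 42.9 CPM (Ptf1a at 0 in both; Cpa1, Ctrb1 and Pnlip also at 0 in late KPC). B and plasma cell markers summed to 1196 CPM there in late KIC, nearly all Jchain, and to 24.5 CPM in late KPC; red cell markers summed to 3885 and 343 CPM. The part of these markers in the results below was not tested.

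Of the genes altered in these models, Cdkn2a, which encodes the p16 and Arf tumour suppressors, was lower in late KIC epithelial cells. Its level was 54.9 CPM in late KIC (183 UMIs) and 453 CPM in late KPC (148 UMIs), an 8.26-fold difference (6.60 to 10.3), with 26.4% of the late KPC UMIs in 1 cell. In the other libraries, epithelial Cdkn2a was at 0 in normal pancreas, 0.722 CPM in early KIC and 612 CPM in late KPfC. The neighbouring Cdkn2b, which encodes p15, went the other way, at 223 CPM in late KIC and 52.0 CPM in late KPC. Trp53 was at 79.5 and 64.3 CPM. The counts are 3' tags whose position against any deleted or mutated exon is not given, so these levels check nothing about the alleles.

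For every other gene, UMIs were summed over the cells of a compartment and written as CPM of that sum. A gene was counted as measured if its pooled UMIs would give at least 5 in each library at equal CPM. It was counted as higher or lower if the CPM values differed at least 2-fold. Late KIC had more UMIs in all 3 compartments, as in epithelial cells (3334581 and 326590). A gene high in late KIC therefore passed the minimum at a lower CPM than one high in late KPC. Among 7532 measured genes of macrophages, 10.5% were higher in late KIC and 12.4% lower; among 7125 of fibroblasts, 12.9% were higher and 8.08% lower; among 6068 of epithelial cells, 13.2% were higher and 14.4% lower. The median log2 ratio over all measured genes was -0.13, 0.09 and -0.11. A ratio is followed by its 95% counting interval. A gene at 0 on one side was set against a floor of 3 UMIs over the compartment for its log2 ratio. Its fold is given as at least the lower end of its 95% counting interval.

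**Figure D2:**
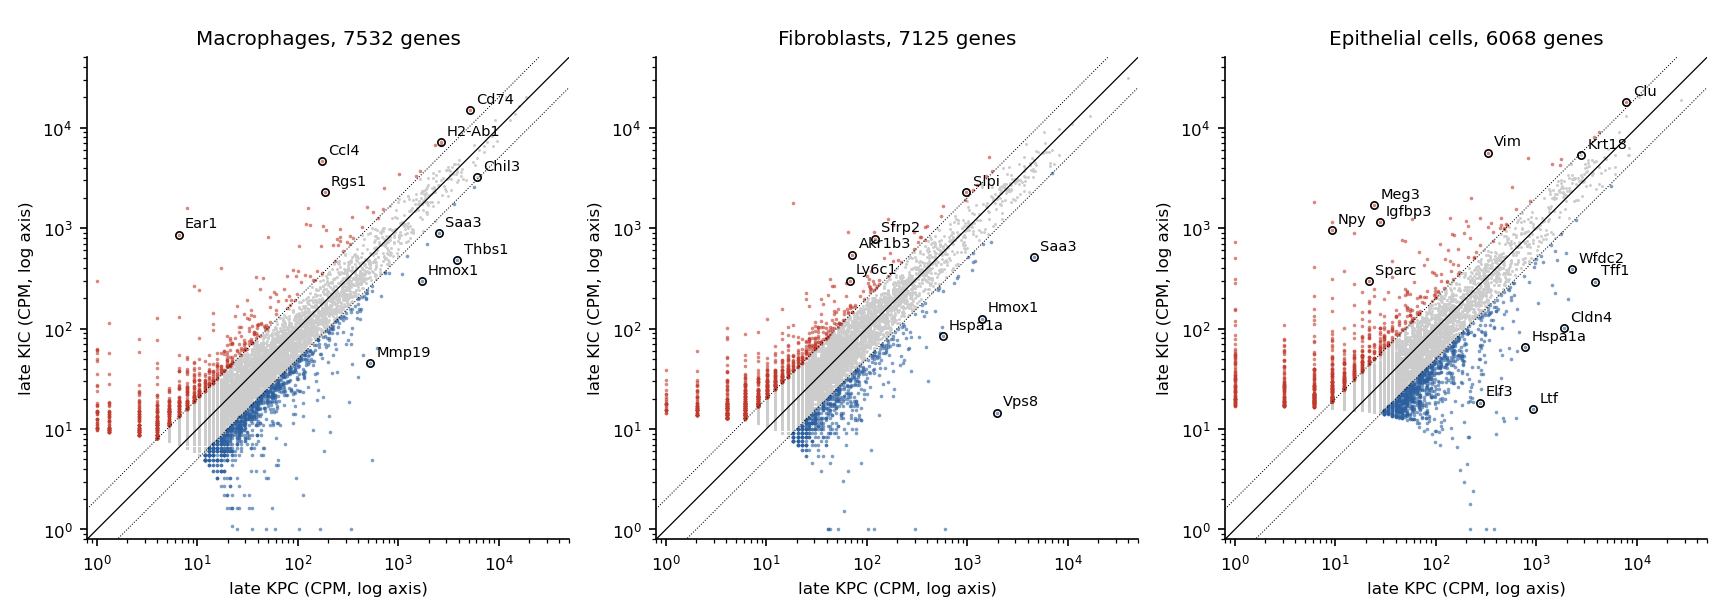
Level of each measured gene in late KPC (x axis, CPM, log) against late KIC (y axis, CPM, log) in the 3 compartments; red points are at least 2-fold higher and blue at least 2-fold lower in late KIC, dotted lines mark 2-fold, and values under 1 CPM are drawn at 1. Circled genes are named in the text; Vim lies at 5644 against 328 CPM in epithelial cells and Ccl4 at 4668 against 176 CPM in macrophages.

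Late KIC macrophages carried more MHC class II and more of several cytokines and chemokines than late KPC macrophages, while Thbs1, Thbd and Mmp19 were among the genes lower there. Of the 7 measured MHC class II genes, 6 were higher in late KIC and 0 lower, with a median log2 ratio of 1.50. Over all measured macrophage genes 10.5% were higher and 12.4% lower. Cd74, the invariant chain that escorts class II molecules, was at 14787 CPM in late KIC and 5212 CPM in late KPC. The class II chains H2-Ab1 (7184 and 2636 CPM) and H2-Aa (6672 and 2308 CPM) differed 2.73-fold (2.60 to 2.86) and 2.89-fold (2.75 to 3.04). Ciita, the class II transactivator, was at 19.1 and 2.62 CPM. H2-Eb1 was within 2-fold, at 2214 and 1699 CPM. Per cell, the summed class II genes had a median of 311 UMIs per 10000 in late KIC (quartiles 64.8 and 539) and 49.3 in late KPC (5.14 and 213), so the middle ranges overlapped. Dendritic cell markers summed to 30.5 and 21.0 CPM (Flt3, Zbtb46 and Clec9a at 0 in both) and B and plasma cell markers to 59.4 and 27.5 CPM; their part was not tested. None of 9 measured MHC class I genes passed 2-fold in either direction, beside 5808 of all 7532 measured macrophage genes within 2-fold.

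Among 17 measured inflammatory cytokines and chemokines, 8 were higher in late KIC macrophages and 0 lower, with a median log2 ratio of 0.86. Ccl4 (chr11:83662584-83664683, GRCm38), a chemokine that attracts T cells and monocytes, was at 4668 CPM in late KIC and 176 CPM in late KPC, a 26.6-fold difference (22.4 to 31.8). Its relative Ccl3 was at 1108 and 120 CPM. Ccl5, a T cell chemokine, was at 131 and 6.55 CPM, with T and NK cell markers at 24.5 and 7.86 CPM. The cytokine genes Tnf (661 and 170 CPM), Il1a (1629 and 486 CPM) and Il1b (6741 and 2639 CPM) were 3.88-fold, 3.35-fold and 2.56-fold higher. Cxcl10 was at 104 and 27.5 CPM. Ccl12 was at 166 and 24.9 CPM, but 1 late KIC cell held 50.7% of its UMIs. The neutrophil chemokine Cxcl2, the most abundant of the list, was within 2-fold at 20377 and 11770 CPM, and Il6 was within 2-fold at 998 and 552 CPM. Neutrophil markers in the macrophages were at 231 and 287 CPM. Il23a, which encodes a subunit of interleukin-23, was at 268 and 9.17 CPM, a 29.2-fold difference (14.1 to 73.0).

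Interferon response genes were higher in part. Of 8 measured, 4 were higher and 0 lower, among them Isg15 (250 and 41.9 CPM) and Rsad2 (56.7 and 1.31 CPM; 1 late KPC UMI). The list's median log2 ratio was 1.02 over all macrophages and 0.07 in Xist-only cells, where 2 of 6 measured genes were higher.

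The other leading genes of late KIC macrophages had varied roles. Adamdec1 (chr14:68563380-68582095), a metalloproteinase-like gene of mucosal macrophages, had 539 UMIs in late KIC (294 CPM) and 0 in late KPC, at least 60.6-fold higher. In the other late KIC cells it was at 2.01 CPM. Rgs1, which dampens chemokine receptor signalling, was at 2279 and 185 CPM, 12.3-fold higher (10.4 to 14.7). Ifitm1, an interferon-inducible membrane gene, was at 1584 and 126 CPM. The ribonuclease genes Ear1 (860 and 6.55 CPM), Ear10 (63.2 and 0 CPM), Ang4 (60.5 and 0 CPM) and Ang5 (57.2 and 0 CPM) also led; they have near-identical copies, so reads may be split among relatives. Pgf, a growth factor of the VEGF family, was at 48.0 and 0 CPM, at least 9.72-fold higher. The histone genes Hist1h2ap (241 and 10.5 CPM) and Hist1h2ak (49.6 and 0 CPM) complete the 12 and likewise have close copies. Hist1h2ap was higher in the other compartments too. Some of these levels differed within late KIC: Ear1 was at 1484 CPM in Xist-only and 467 CPM in Y-only macrophages, Hist1h2ap at 419 and 88.1 CPM, Hist1h2ak at 84.4 and 17.4 CPM and, the other way, Il23a at 89.5 and 478 CPM. The log2 ratio of Il23a to late KPC was 4.87 over all cells, 3.79 in Xist-only cells of both libraries and 5.70 with Y-only late KIC cells.

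Among the 12 leading genes lower in late KIC macrophages, Thbs1, which encodes the matrix glycoprotein thrombospondin-1, was at 482 CPM in late KIC and 3870 CPM in late KPC, 8.02-fold lower (7.44 to 8.66). Thbd, the thrombin receptor thrombomodulin, was at 32.7 and 401 CPM, 12.3-fold lower (9.27 to 16.4). Mmp19, a matrix metalloproteinase, was at 45.2 and 528 CPM, 11.7-fold lower (9.20 to 15.0). Loxl2, a collagen-crosslinking oxidase, was at 2.18 and 113 CPM, and at 64.0 and 93.0 CPM in the cells outside the macrophages. Rnase2a, another eosinophil-type ribonuclease, was at 63.8 and 610 CPM, against the direction of Ear1; within late KIC it was at 130 CPM in Xist-only and 11.2 CPM in Y-only macrophages, with log2 ratios to late KPC of -2.20 and -5.77. Abcb1b, a drug efflux pump, was at 4.36 and 64.2 CPM, and at 31.9 and 100.4 CPM in the cells outside the macrophages. Other proteases went the other way: Mmp13 (329 and 38.0 CPM), Mmp9 (76.3 and 3.93 CPM) and Mmp14 (51.2 and 19.6 CPM) were higher, so that of 7 measured metalloproteinases and inhibitors 3 were higher and 2, Mmp19 and Timp1, lower.

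Macrophage state lists went both ways, beside 10.5% higher and 12.4% lower over all measured macrophage genes. Of 6 measured genes of large peritoneal macrophages 0 were higher and 4 lower (median log2 ratio -1.75): Saa3, an acute-phase gene, at 893 and 2526 CPM, Serpinb2 at 24.5 and 98.3 CPM, Prg4 at 10.9 and 52.4 CPM and Alox15, a lipoxygenase, at 10.9 and 56.3 CPM. Of 10 measured tissue-resident genes 5 were lower, among them Mrc1, the mannose receptor (360 and 736 CPM), Pf4 (209 and 460 CPM) and F13a1 (113 and 255 CPM). Against them, Ccl24 (774 and 248 CPM) and Folr2 (26.2 and 7.86 CPM) were higher. This list's median was -0.83 over all cells and 0.07 with the Y-only late KIC cells. Of 9 measured monocyte genes, 1 was higher and 3, Thbs1 among them, lower. Their sum per cell had a median of 13.3 UMIs per 10000 in late KIC (quartiles 4.98 and 26.2) and 49.8 in late KPC (26.8 and 87.3), so the middle ranges were apart. Thbs1 carried most of that: the other 8 measured genes summed to 1251 CPM in late KIC and 1467 CPM in late KPC. Ccr2, the monocyte chemokine receptor, was within 2-fold at 62.1 and 98.3 CPM. Of 15 lipid-associated macrophage genes 11 were within 2-fold, beside 5808 of all 7532 measured macrophage genes. Among the 11 were Spp1 (3678 and 3294 CPM), Apoe (11882 and 9201 CPM) and Trem2 (160 and 114 CPM), while Gpnmb, Lpl and Lipa were lower. Among 10 alternative-activation genes, Mgl2 (111 and 14.4 CPM), Ear2 (980 and 263 CPM) and Retnla (222 and 60.3 CPM) were higher; 1 cell held 91.3% of the late KPC Retnla UMIs. Arg1 (1226 and 1718 CPM) and Chil3 (3185 and 6036 CPM) were within 2-fold.

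**Figure D3:**
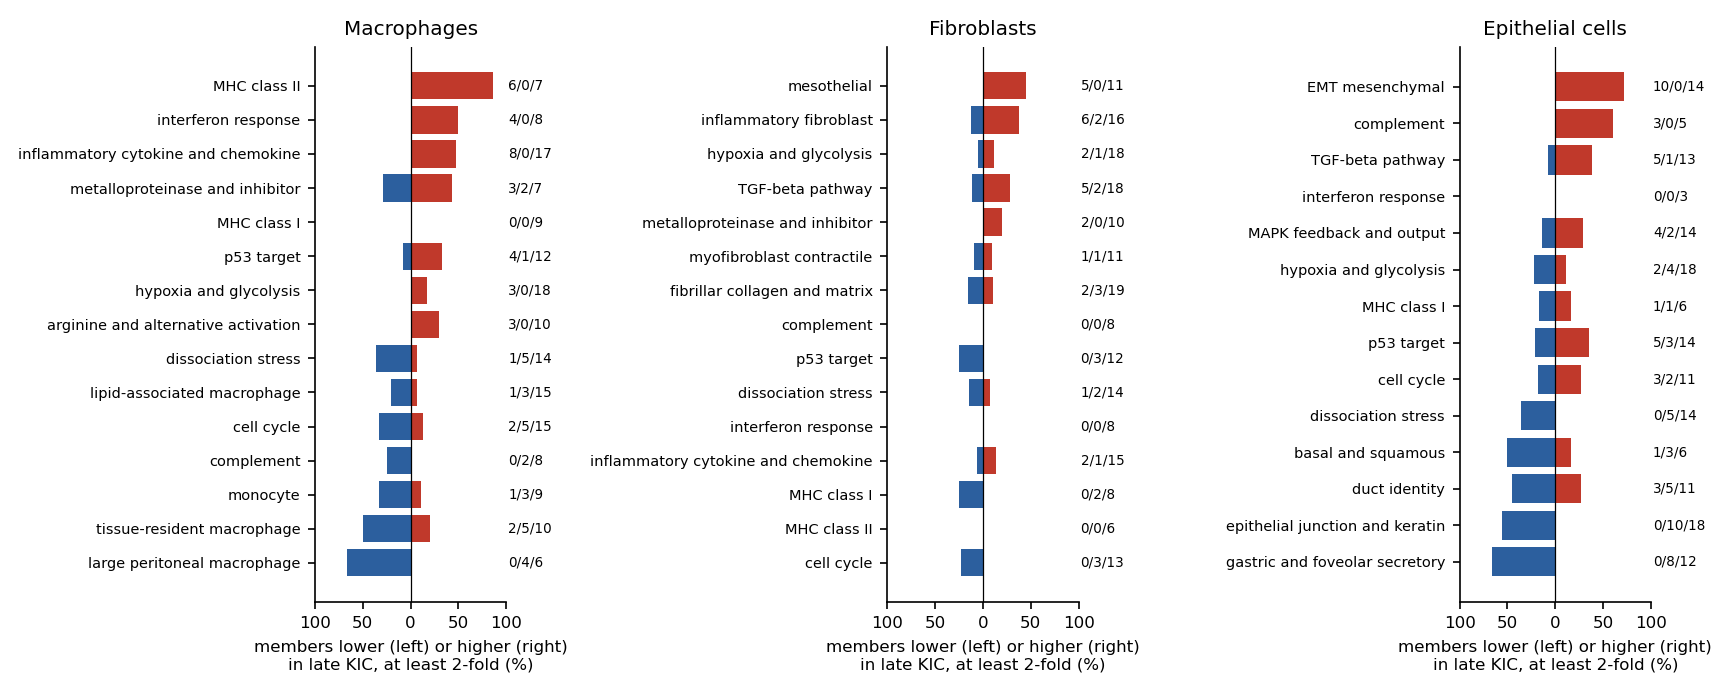
Percent of the measured members of each gene list at least 2-fold higher (red, right) or lower (blue, left) in late KIC, by compartment; the numbers beside each bar are members higher, lower and measured, and lists are sorted by their median log2 ratio. MHC class II heads the macrophages (6 of 7 higher), mesothelial genes the fibroblasts (5 of 11) and EMT genes the epithelial cells (10 of 14).

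In fibroblasts most matrix and contractile genes were within 2-fold, as were 5629 of all 7125 measured genes. Some mesothelial, acute-phase and stress genes differed. Of 19 measured matrix genes 14 were within 2-fold, 2 higher and 3 lower in late KIC (median log2 ratio 0.07). Sparc, a collagen-binding glycoprotein, was at 7040 CPM in late KIC and 5894 CPM in late KPC, and Fn1, fibronectin, was at 2588 and 1411 CPM. Fbn1, the microfibril protein fibrillin-1, was higher at 482 and 203 CPM, and Postn, periostin, at 167 and 67.6 CPM. Tnc, tenascin, was lower at 80.3 and 248 CPM, with 59.5% of the late KPC UMIs in 1 cell; Thbs2 (27.5 and 84.0 CPM) and Col8a1 (23.7 and 53.2 CPM) were also lower. Of 11 contractile genes of myofibroblasts 9 were within 2-fold, Acta2 at 242 and 182 CPM among them, with Thy1 higher (142 and 65.5 CPM) and Myl9 lower (10.7 and 51.2 CPM).

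Mesothelial genes in fibroblasts were higher in late KIC or within 2-fold. Of 11 measured 5 were higher and 0 lower (median log2 ratio 0.91): Msln, mesothelin, at 262 and 47.1 CPM, the keratins Krt8 (225 and 24.6 CPM) and Krt18 (196 and 24.6 CPM), Slpi, a protease inhibitor, at 2293 and 977 CPM, and Upk1b at 100.1 and 45.1 CPM. Wt1, a mesothelial transcription factor, was alike at 219 and 219 CPM, and the mesothelial markers Lrrn4 (52.0 and 43.0 CPM), Nkain4 (226 and 143 CPM) and Upk3b (88.7 and 47.1 CPM) were within 2-fold. Krt8 and Krt18 are also epithelial markers, whose sum in fibroblasts is given above. In late KIC 1 cell held 51.6% of the Msln UMIs. Per cell, the list summed to a median of 15.8 UMIs per 10000 in late KIC (quartiles 5.78 and 44.4) and 8.75 in late KPC (0 and 18.2). Cells with at least 2 UMIs of mesothelial markers numbered 59 of 82 in late KIC and 34 of 113 in late KPC. The median depth over all fibroblasts was 14260 UMIs in late KIC and 2932 UMIs in late KPC. Without the cells carrying these markers 23 and 79 fibroblasts remained, 2.75% and 7.64% of kept cells. The median of the 7 list genes then measured was -0.52. The cells taken out were chosen by UMIs of list genes, so this median is a description only. The cut is a number of UMIs, which cells of the deeper library reach more easily, so these shares are not on an equal footing.

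The leading genes of late KIC fibroblasts included aldo-keto reductases and secreted signalling modulators. Akr1b3 (chr6:34302434-34317478), an aldose reductase, was at 544 CPM in late KIC and 71.7 CPM in late KPC, 7.59-fold higher (5.41 to 10.99), and its relative Akr1b8 was at 167 and 26.6 CPM. Gstp1, a glutathione transferase with a close copy, was at 313 and 43.0 CPM, and was higher in the other compartments too. Sfrp2, a secreted WNT modulator, was at 784 and 121 CPM, 6.49-fold higher (4.99 to 8.59); within late KIC it was at 401 CPM in Xist-only and 1420 CPM in Y-only fibroblasts. S100a4, a calcium-binding gene of motile cells, was at 284 and 61.4 CPM. Ly6c1, a surface gene of some fibroblasts and endothelium, was at 300.4 and 67.6 CPM, with endothelial markers at 26.8 and 26.6 CPM. Mpp6 (156 and 14.3 CPM), Gcsh (267 and 45.1 CPM), Celf4, Dfna5 and Crocc2 were also among the 12; the last 3 had at most 2 UMIs in late KPC. Without the cells carrying mesothelial markers, 9 of the 11 genes still measured stayed at least 2-fold higher, and Sfrp2 and Ly6c1 had log2 ratios of 0.92 and 0.98.

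Among the 12 leading genes lower in late KIC fibroblasts, Saa3 (chr7:46711998-46715700), an acute-phase serum amyloid, was at 514 CPM in late KIC and 4610 CPM in late KPC, 8.96-fold lower (8.22 to 9.78). Hmox1, the haem oxygenase, was at 125 and 1397 CPM, 11.1-fold lower (9.38 to 13.3), with red cell markers at 5907 and 7219 CPM. Procr, the endothelial protein C receptor, was at 104 and 559 CPM. Nr4a2, an orphan nuclear receptor, was at 91.0 and 534 CPM, and Arc (6.12 and 111 CPM) and Homer1 (9.17 and 77.8 CPM) were lower too. The p53 targets Cdkn1a (52.7 and 221 CPM), Mdm2 (40.5 and 151 CPM) and Plk2 (32.1 and 100.3 CPM) were lower, and the other 9 of 12 measured were within 2-fold.

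Secreted inflammatory genes of fibroblasts were mixed. Of 16 measured inflammatory fibroblast genes 6 were higher and 2 lower (median log2 ratio 0.65, and 0.07 when each cell counted equally). Dpt (307 and 131 CPM), Igfbp4 (2682 and 1253 CPM), Ccl11 (147 and 49.2 CPM) and Cxcl14 (210 and 61.4 CPM) were higher, along with Ly6c1 and Cfd, whose UMIs all came from 1 cell. Saa3 and Lif were lower. The chemokine genes Ccl2 (2279 and 4116 CPM) and Cxcl1 (3233 and 4524 CPM) were within 2-fold, as was Il6 (654 and 580 CPM). Among 18 measured genes of the TGF-beta pathway 5 were higher and 2 lower: the ligand Tgfb1 (71.1 and 20.5 CPM), the receptor Tgfbr1 (72.6 and 34.8 CPM), Bmp1, Ltbp1 and the inhibitor Smad6 were higher, the ligand subunit Inhba (78.7 and 180 CPM) and the target Tgfbi (16.8 and 69.6 CPM) lower. None of 8 complement or 8 interferon response genes passed 2-fold, beside 5629 of all 7125 measured fibroblast genes within 2-fold. Over all measured fibroblast genes 12.9% were higher and 8.08% lower.

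With cells entered by the rule as given, mesenchymal genes were much higher in late KIC than in late KPC epithelial cells. Junction genes were lower, and the main keratins were alike. The rule asks for a number of UMIs of junction genes, which cells of the deeper library reach at a lower level. Entry genes were at a median of 2.60 per 10000 in late KIC and 20.7 in late KPC. The part of the rule in both differences was not tested. Of 14 measured EMT genes 10 were higher and 0 lower (median log2 ratio 2.31). Over all measured genes of the compartment the shares were 13.2% and 14.4%, and the minimum favours genes high in late KIC. Vim (chr2:13573927-13582826), the mesenchymal filament vimentin, was at 5644 CPM in late KIC and 328 CPM in late KPC, 17.2-fold higher (14.3 to 21.0). Of the late KPC Vim UMIs 53.3% came from 1 cell; without it Vim was at 177 CPM there. Lgals1, galectin-1, was at 4991 and 824 CPM, with 71.4% of the late KPC UMIs in that same cell. Sparc was at 295 and 21.4 CPM and the receptor tyrosine kinase gene Axl at 210 and 24.5 CPM. Cdh2, N-cadherin, was at 50.7 and 9.19 CPM, and the EMT transcription factor genes Zeb1 (22.8 and 3.06 CPM) and Zeb2 (25.5 and 12.2 CPM) were higher at low counts. Fn1 was within 2-fold at 1160 and 707 CPM. Per cell, the list had a median of 99.7 UMIs per 10000 in late KIC (quartiles 40.9 and 162) and 7.12 in late KPC (2.57 and 21.3), with no overlap of the middle ranges.

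Fibroblast transcripts were also higher in late KIC epithelial cells. Fibroblast markers summed to 320 CPM in late KIC (7 of 8 with UMIs, Fap at 0) and 39.8 CPM in late KPC (3 of 8; Pdgfra, Pdgfrb, Lum, Dpt and Fap at 0); Sparc, which is in both lists, made up 295 and 21.4 CPM of these sums. The collagen Col3a1 was at 162 CPM in late KIC epithelial cells, against 10064 CPM in late KIC fibroblasts, and at 3.06 CPM in late KPC epithelial cells. Vim in the late KIC epithelial cells was above its 3388 CPM in the other late KIC cells. With at least 2 entry UMIs per 10000 required, 8 of 13 measured EMT genes were higher, 0 lower, and the median was 1.93.

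Of 18 measured junction and keratin genes 0 were higher in late KIC and 10 lower (median log2 ratio -1.11). The tight junction gene Cldn4 (chr5:134945119-134946934) was at 101 CPM in late KIC and 1880 CPM in late KPC, 18.7-fold lower (16.3 to 21.4). Cldn3 was at 64.2 and 530 CPM and Cldn6 at 41.7 and 230 CPM. Elf3, an epithelial transcription factor, was at 18.3 and 272 CPM, 14.9-fold lower (10.6 to 21.0). Genes of the surface protease system, Spint1 (9.60 and 98.0 CPM) and St14 (12.9 and 85.7 CPM), were lower, as were Rab25, Dsp and Tjp1. The keratins were within 2-fold: Krt19 at 1138 and 1142 CPM, Krt7 at 734 and 1115 CPM, Krt8 at 3935 and 3047 CPM and Krt18 at 5352 and 2799 CPM. The rule genes Epcam (267 and 1283 CPM), Cdh1 (112 and 328 CPM) and Cldn7 (95.7 and 475 CPM) chose these cells and are given as a description. Asking for 2 entry UMIs per 10000 gave log2 ratios of -2.90 for Cldn4 and -2.62 for Elf3. Thinned to 1000 UMIs, 7 of the genes were measured, with a median of -0.04, so the lower list median was not seen at equal depth. The log2 ratio of Cldn4 ran from -4.76 to -2.79 over all alternatives.

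**Figure D4:**
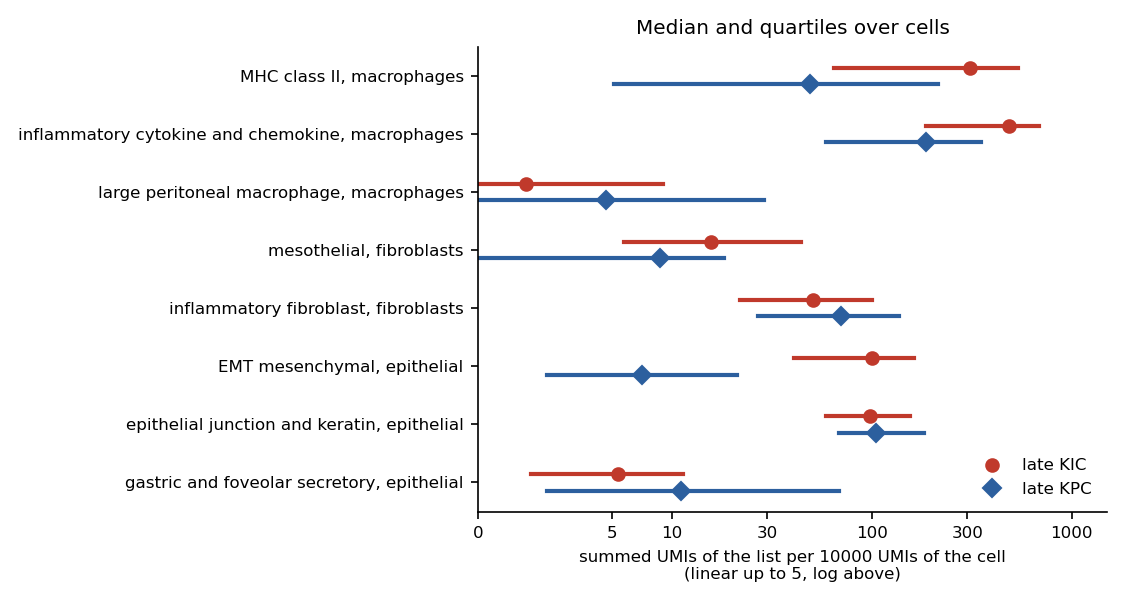
Summed UMIs of 8 gene lists per 10000 UMIs of a cell (x axis, linear to 5 and log above) in late KIC (red circles) and late KPC (blue diamonds); points are medians over cells and bars run from the lower to the upper quartile. The bars are apart for EMT genes in epithelial cells (medians 99.7 and 7.12) and overlap in the other 7 lists drawn; cells of 1 library are not replicates.

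The other leading genes of late KIC epithelial cells also had varied roles. Igfbp3, which binds insulin-like growth factors, was at 1142 CPM in late KIC and 27.6 CPM in late KPC, 41.4-fold higher (21.8 to 90.7). Npy, neuropeptide Y, was at 945 and 9.19 CPM, 103-fold higher (35.2 to 499). The imprinted long noncoding RNA Meg3 was at 1699 and 24.5 CPM. Prl2c3, a proliferin with close copies, had 1676 UMIs (503 CPM) against 0, at least 44.45-fold higher, with 19.2% of them in 1 cell. Ctla2a, a cysteine protease inhibitor, was at 898 and 15.3 CPM. Mcpt8, a serine protease known from basophils, was at 413 and 6.12 CPM (2 late KPC UMIs), with at most 9.80% of its late KIC UMIs in 1 cell and 263 CPM in the other late KIC cells. Bmp7, a bone morphogenetic ligand, was at 153 and 0 CPM, and Nrn1, neuritin, at 120 and 0 CPM, at least 13.47-fold and 10.54-fold higher. The thrombin receptor F2r was at 756 and 45.9 CPM and the kinase gene Prkg2 at 311 and 9.19 CPM. All 12 stayed at least 2-fold higher when 2 entry UMIs per 10000 were required, with smaller log2 ratios for Meg3 (4.82 against 6.12) and Bmp7 (3.31 against 4.05). Over all alternatives the log2 ratio of Npy ran from 2.61 to 8.19 and that of Meg3 from 2.96 to 6.37, both lowest after thinning, and that of Vim from 3.92 to 5.71.

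Of 13 measured genes of the TGF-beta pathway 5 were higher and 1 lower in late KIC epithelial cells, and 7 were within 2-fold. The ligand gene Tgfb1 was at 229 and 18.4 CPM, 12.5-fold higher (5.70 to 34.1), and Inhba, an activin subunit, was at 328 and 36.7 CPM. Bmp1 (75.3 and 18.4 CPM), which processes matrix precursors, and Ltbp1 (87.6 and 27.6 CPM), which stores latent TGF-beta, were higher. The receptor Tgfbr1 was lower at 26.7 and 58.2 CPM, and Tgfbr2 was within 2-fold at 39.0 and 39.8 CPM.

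Among the 12 leading genes lower in late KIC epithelial cells, besides Cldn4, Elf3 and the chaperones described below, Ltf, the iron-binding lactoferrin, was at 15.9 CPM in late KIC and 928 CPM in late KPC, 58.4-fold lower (43.5 to 79.7), with 84.9% of the late KIC UMIs in 1 cell and log2 ratios from -8.74 to -3.67 over the alternatives. Edn1, the vasoconstrictor endothelin-1, was at 3.90 and 174 CPM. Prom1, a membrane protrusion gene of duct cells, was at 8.40 and 214 CPM. The zinc transporter Slc39a4 (11.7 and 193 CPM), Pdzk1ip1 (8.10 and 144 CPM), Shroom3, an organiser of apical actin (6.90 and 110 CPM), Plet1 (25.2 and 282 CPM) and Hs3st1, a heparan sulfotransferase (19.2 and 217 CPM), were lower as well. Of 11 measured duct genes 3 were higher and 5 lower. Wfdc2, a secreted protease inhibitor, was lower at 388 and 2272 CPM and the transcription factor Onecut2 at 215 and 594 CPM. Clu, clusterin, was higher at 18022 and 7897 CPM, and Spp1, osteopontin, at 8945 and 4247 CPM. Sox9, the duct regulator, was within 2-fold at 147 and 291 CPM. Of 6 measured basal and squamous genes 3 were lower, among them Sfn (50.1 and 563 CPM) and Ly6d (180 and 1047 CPM).

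Gastric-type genes were lower in late KIC by count, but most of their late KPC UMIs came from 1 cell. Of 12 measured 0 were higher and 8 lower (median log2 ratio -3.10). Tff1, a trefoil factor of gastric surface cells, was at 294 and 3855 CPM, and 1 late KPC cell held 96.0% of its UMIs there. That cell, with 14899 UMIs and no Xist UMI, also held 95.4% of the Gkn1, 93.3% of the Gkn2, 84.4% of the Tff2 and 55.2% of the Cldn18 UMIs. Without it the late KPC level of Tff1 was 164 CPM, and the list had 1 gene higher and 4 lower of 9 with a median of 0.20. Dmbt1, a secreted scavenger glycoprotein, did not depend on that cell: it was at 199 CPM in late KIC and 2079 CPM in late KPC (2172 CPM without the cell, though another held 44.5% of its UMIs). Muc1, the membrane mucin, was at 54.9 and 303 CPM, with no more than 18.0% of its UMIs in 1 cell on either side.

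Growth and stress pathways were mixed in epithelial cells, beside 13.2% higher and 14.4% lower over all measured genes of the compartment. Of 14 measured MAPK output genes 4 were higher, among them Ccnd1, cyclin D1 (677 and 276 CPM), and Dusp6 (138 and 64.3 CPM), and 2 lower, Fosl1 (47.7 and 190 CPM) and Phlda1. Of 14 p53 targets 5 were higher and 3 lower. Ccng1 (50.7 and 9.19 CPM), Phlda3 (113 and 30.6 CPM) and Bax (207 and 101 CPM) were higher, and Cdkn1a, the p21 cell cycle inhibitor (207 and 560 CPM), Plk2 and Pmaip1 lower. Of 18 hypoxia and glycolysis genes the glycolytic Eno1 (1166 and 199 CPM) and Pgk1 (291 and 61.2 CPM) were higher, while Hk2 (150 and 499 CPM), Vegfa (91.5 and 224 CPM), Egln3 and Ero1l were lower. Of 11 cell cycle genes 3 were higher and 2 lower. Eno1 and Pgk1 were at least 2-fold higher in macrophages and fibroblasts too, at 734 and 309 CPM and 135 and 34.1 CPM in macrophages, and 559 and 170 CPM and 94.0 and 30.7 CPM in fibroblasts.

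Some genes stood apart in every compartment. The stress-inducible chaperone genes Hspa1a and Hspa1b were lower in all 3 compartments of late KIC. Hspa1a was at 62.1 and 238 CPM in macrophages, 84.1 and 569 CPM in fibroblasts, and 65.4 and 772 CPM in epithelial cells. Hspa1b was at 11.4 and 90.4 CPM, 21.4 and 182 CPM, and 32.1 and 447 CPM. Their co-chaperone Dnajb1 was lower in macrophages (25.6 and 68.1 CPM) and epithelial cells (130 and 291 CPM) and within 2-fold in fibroblasts (239 and 367 CPM). Immediate-early genes of the same dissociation stress list did not follow in one direction: Fos was within 2-fold in all 3 compartments, Egr1 was lower in macrophages (105 and 220 CPM) and epithelial cells (453 and 964 CPM), and Atf3 was higher in macrophages (204 and 52.4 CPM) and lower in epithelial cells (464 and 1157 CPM). Hmox1 was lower in macrophages (297 and 1715 CPM) and epithelial cells (35.4 and 285 CPM) as in fibroblasts.

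The 250 bases before the start of Hspa1a (chr17:34972157-34972406, minus strand) and Hspa1b (chr17:34959239-34959488, minus strand) are shown, since these genes were lower together and are close copies. Sequences are from RefSeq, build GRCm38.p6, read 5′ to 3′ toward the gene, with matches to the heat-shock core GAANNTTC in capitals; the motif reads the same on both strands.
Hspa1a: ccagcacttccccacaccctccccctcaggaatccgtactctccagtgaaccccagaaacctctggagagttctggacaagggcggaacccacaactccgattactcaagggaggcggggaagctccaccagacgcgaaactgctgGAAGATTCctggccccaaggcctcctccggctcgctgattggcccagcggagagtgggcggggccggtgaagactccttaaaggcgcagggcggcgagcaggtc
Hspa1b: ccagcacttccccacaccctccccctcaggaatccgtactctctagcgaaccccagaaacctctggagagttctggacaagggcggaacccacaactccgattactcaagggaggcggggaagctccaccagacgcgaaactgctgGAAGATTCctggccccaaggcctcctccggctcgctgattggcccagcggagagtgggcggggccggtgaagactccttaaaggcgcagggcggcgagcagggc
The sequences differ at 3 of 250 positions and each holds 1 match, 104 bases before the start. The motif occurs in the same window of 6.69% of 32851 promoters (2199). The transcripts are alike too, so reads of this pair may be split, and their levels are uncertain one by one.

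Several leading genes lower in late KIC were lower in more than 1 compartment. Thbs1 (482 and 3870, 468 and 1198, 75.3 and 300 CPM), Saa3 (893 and 2526, 514 and 4610, 13.5 and 36.7 CPM) and Nr4a2 (98.6 and 224, 91.0 and 534, 24.0 and 55.1 CPM) were lower in macrophages, fibroblasts and epithelial cells. Arc was lower in fibroblasts and epithelial cells, and Homer1 and Procr in macrophages and fibroblasts. Abcb1b and Mmp19 were lower in macrophages and epithelial cells. Vps8, an endosomal tethering gene, was at 18.5 CPM in late KIC and 322 CPM in late KPC macrophages, 14.5 and 1954 CPM in fibroblasts, and 12 and 478 CPM in epithelial cells. In the late KPC cells outside the fibroblasts it was at 457 CPM. Tmem245 (9.26 and 207, 13.8 and 131, 28.5 and 153 CPM), Golga3 (13.6 and 203, 22.2 and 100.3, 20.7 and 217 CPM), Pola2 (9.81 and 143, 6.88 and 61.4, 9.30 and 107 CPM) and Cnot3 (15.3 and 60.3, 25.2 and 186, 25.8 and 88.8 CPM) did the same in macrophages, fibroblasts and epithelial cells. Lhfpl4 was at 0 and 165 CPM in macrophages and 2.40 and 233 CPM in epithelial cells, but had too few UMIs to be measured in fibroblasts (4 on each side; 3.06 and 8.19 CPM). The long noncoding RNA RP23-4H17.3 was at 6.00 and 181 CPM in macrophages and 0 and 119 CPM in fibroblasts. It was under the minimum in epithelial cells (3 and 31 UMIs, 0.90 and 94.9 CPM). BC018473, listed in the annotation as antisense, was at 0 and 48.5 CPM in macrophages, and was not measured in fibroblasts or epithelial cells (4 and 3 late KPC UMIs); whether counting used strand is not given. The gene models Gm26870 and Gm10800, singled out after their values were seen, were also low in late KIC in all compartments. Gm26870 was at 4.905 and 550, 0.764 and 604, and 0.300 and 383 CPM. Gm10800 was at 0 and 339, 0 and 303, and 0.300 and 318 CPM. In the opposite direction, some leading genes given above for 1 compartment were higher in late KIC in all of them. Gstp1 was 8.237-fold, 7.287-fold and 11.09-fold higher in macrophages, fibroblasts and epithelial cells. Hist1h2ap was 22.98-fold, 20.16-fold and 25.61-fold higher, at low late KPC counts. Ccl4, Rgs1, Npy and Mcpt8 were also at least 2-fold higher in each. Ear1, Gcsh, Igfbp3 and Ly6c1 were instead lower in another compartment. The gene model Gm10260 and the ribosomal protein gene Rpl29, also singled out after their values were seen, were high in late KIC in all compartments. Gm10260 was at 1572 and 7.86, 1781 and 18.4, and 1817 and 6.12 CPM, and Rpl29 at 816 and 51.1, 915 and 65.5, and 738 and 49.0 CPM. Within late KIC, Rpl29 was at 307 to 402 CPM in Xist-only and 1081 to 1488 CPM in Y-only cells of the compartments.

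The late KPfC library, from C57BL/6 mice at 60 days, is set beside both for the leading genes; it shares age with late KIC and not with late KPC. In epithelial cells late KPfC lay with late KPC for Vim (297 CPM), Ltf (746 CPM) and Cdkn2a (612 CPM). It lay between the 2 for Cldn4 (380 CPM), Npy (214 CPM), Tgfb1 (81.8 CPM) and Hspa1a (151 CPM). In macrophages it was near late KPC for Rgs1 (265 CPM) and Thbs1 (2551 CPM), near late KIC for Mmp19 (74.9 CPM), Thbd (47.8 CPM) and Hmox1 (437 CPM), and between them for Ccl4 (1680 CPM). In fibroblasts Saa3 was higher in late KPfC than in either, at 11042 CPM, Akr1b3 was at 115 CPM and Hmox1 at 299 CPM. Gm10260 was at 13.6 to 21.8 CPM in its 3 compartments, near late KPC, Rpl29 at 1045 to 1226 CPM, near late KIC, and Vps8 at 7.89 to 12.7 CPM.

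**Figure D5:**
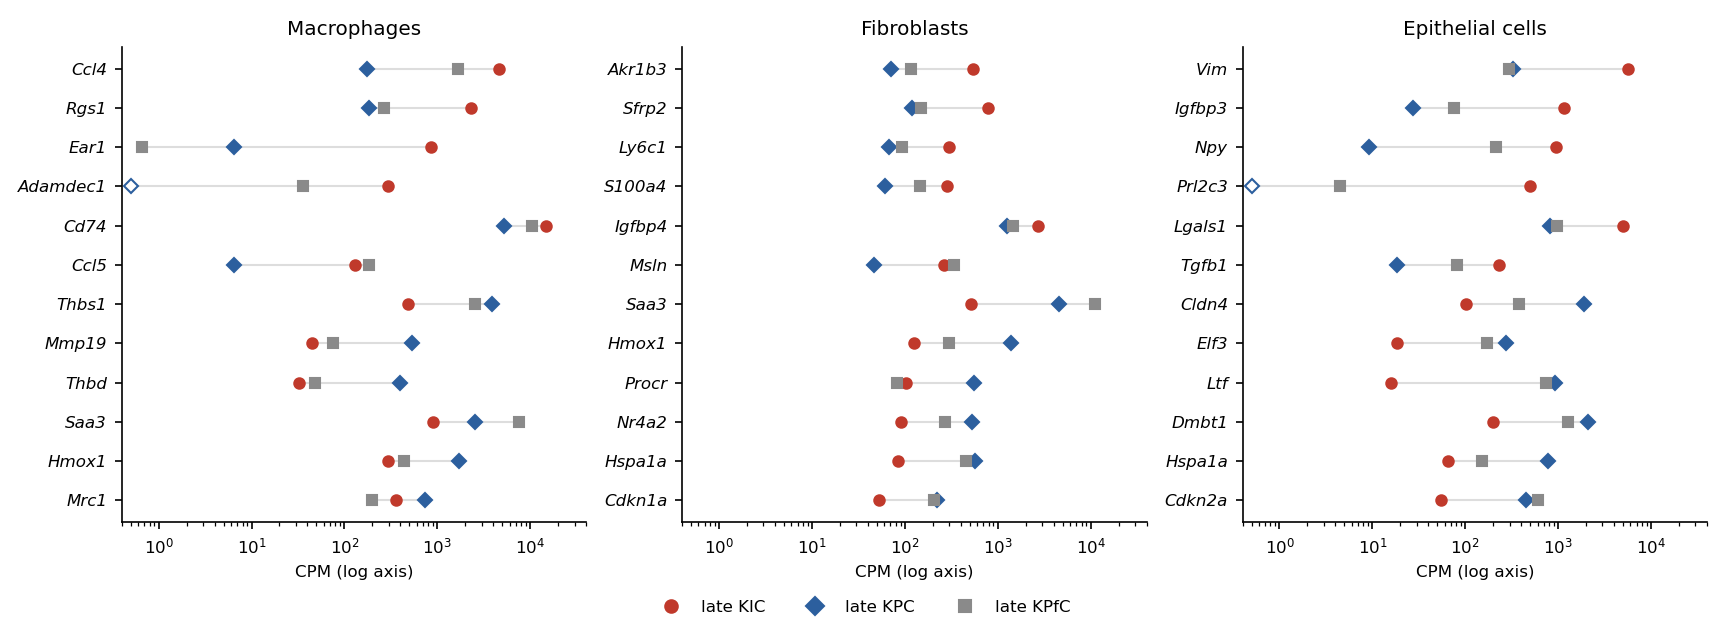
Level (x axis, CPM, log) of 12 genes per compartment in late KIC (red circles), late KPC (blue diamonds) and late KPfC (grey squares), 1 library each; an open symbol at 0.5 CPM marks 0 UMIs. For Vim in epithelial cells late KPfC (297 CPM) and late KPC (328 CPM) lie together, well under late KIC (5644 CPM).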

How the data were processed

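Single-cell RNA libraries were made by the authors with the 10x Genomics 3' v2 kit, per the labels' protocols. The deposited files hold whole-number UMI counts for each gene in each barcode, made with Cell Ranger 2.1.1 on GRCm38, per the submitters' processing notes; no source used here gives the annotation release, the strand setting or the reads per UMI. All 5 libraries list 27998 genes. Groups are those of the labels, 1 library each. Cells were filtered and assigned as stated above, no doublet caller was run, and cells in more than 1 compartment count in each. Counts were summed per compartment and compared as CPM ratios with exact conditional binomial intervals (95%); shares have Clopper-Pearson intervals. No p-value was computed. Named genes are, per compartment and direction, the 12 measured genes at least 2-fold apart with the largest fold at the interval bound nearest to 1, plus members of the lists. Left out were rule, sex-linked, mitochondrial, ribosomal, haemoglobin, immunoglobulin, acinar and gene-model symbols, genes with over 25% of the UMIs on the higher side in 1 cell, and genes under 0.5 of their level in the other cells of that library. The gene lists (29 lists, 416 genes, 3 not in the table), 80 markers and the compartments were chosen with earlier results of these data known. In all, 13 alternatives were computed, and 2 more were chosen after seeing the data. The ratio code was tested on simulated data. Python 3.11.15, numpy 2.4.6, scipy 1.17.1, pandas 2.3.3 and matplotlib 3.10.9 were used. Some genes of the lists and counts are not reported here by name.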

Additional observations from a re-analysis of the deposited data

How the results depend on the processing

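With 1 library per group no replicate could be left out, and no paired analysis was possible because each group is 1 sample. The counts of genes at least 2-fold apart moved with the number of genes measured. With every cell thinned to 1000 UMIs, 363 of 3405 measured genes were higher and 657 lower in macrophages. In fibroblasts 308 were higher and 328 lower of 2182, and in epithelial cells 79 and 91 of 529. With 20 expected UMIs required the counts were 253 higher and 358 lower of 3728 in macrophages. They were 219 and 154 of 2815 in fibroblasts, and 256 and 164 of 2109 in epithelial cells. With no minimum, 1246 were higher and 2015 lower of 10791 in macrophages. There were 1472 and 1866 of 11351 in fibroblasts, and 1102 and 3229 of 11219 in epithelial cells. Keeping epithelial cells of 1 compartment only, without the top 5% by UMIs, left 412 higher and 170 lower of 1930 measured genes. With Y-only late KIC cells, 915 of 6949 measured genes were lower in fibroblasts. The cause was not tested. The log2 ratio of macrophage shares was 0.35 with doubled entry thresholds, -0.49 in Xist-only cells and 0.37 with Y-only late KIC cells. That of fibroblast shares was -1.47 without cells carrying mesothelial markers, a cut at a number of UMIs that cells of the deeper library reach more easily. That of epithelial shares was 0.56 after thinning and 1.11 with 2 entry UMIs per 10000, a setting chosen after seeing the data. The gastric gene list turned its direction 3 times, to a median log2 ratio of 0.37 after thinning, 0.55 in Xist-only cells, and 0.20 without the late KPC cell highest in Tff1, also chosen after seeing the data. No other list with a median beyond 2-fold changed sign, and 45 of 551 list medians crossed the 2-fold line in either direction. Of 822 values of the 72 leading genes 0 were reversed, 148 lay outside the gene's counting interval, and 154, in 60 genes, lay over 1.5 times from the value given. Sfrp2 and Ly6c1 without mesothelial-marked fibroblasts were the only leading genes to come under 2-fold where measured. The leading genes were chosen for large folds in the same libraries, so these counts are not a separate check.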

Other observations

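Among cells that entered no compartment (436 in late KIC and 630 in late KPC), 172 and 225 carried Ptprc. Neutrophil markers summed to 3860 CPM in late KIC and 8671 CPM in late KPC, macrophage markers to 1440 and 7770 CPM, B and plasma cell markers to 1164 and 2701 CPM, and endothelial markers to 38.4 and 238 CPM. Red cell markers were alike, at 51612 and 50521 CPM.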
